A study of Arabidopsis thaliana with 44 samples.

Results

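The genes described here are those carried by the chloroplast (plastid) genome of Arabidopsis thaliana, measured in whole seedlings after ionising radiation. A gene was a member where a probe set of the array was annotated to 1 gene and that gene's locus tag belongs to the plastid genome. This gave 69 members among 13356 genes tested. They comprise 43 photosynthesis genes (psa, psb, pet, atp, ndh and rbc), 19 gene expression genes (rpl, rps and rpo) and 7 others (accD, ccsA, cemA, clpP, matK, ycf3 and ycf4). The gene table lists 78 plastid protein-coding symbols. The other 9 had no probe set annotated to them alone and are not members.

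Seedlings were wild type (WT) or atm-1, a mutant of ATM, a kinase that signals breaks in DNA. They received 100 Gy of gamma rays over 15 minutes, or 30 Gy of HZE, which here means accelerated iron nuclei, over about 12 minutes. WT was harvested 1.5, 3, 6, 12 and 24 h after either radiation, and atm-1 at 1.5, 6, 12 and 24 h. Plants were 5 days old, except the 24 h groups and the day 2 controls, which were 6 days old. The gamma series was sampled at 10:10 am for the 1.5 h group, 11:40 am for 3 h, 2:55 pm for 6 h, 8:40 pm for 12 h and 8:40 am for 24 h. Sampling after HZE fell at 2:39 pm (1.5 h), 4:09 pm (3 h), 7:24 pm (6 h), 1:09 am (12 h) and 1:09 pm (24 h). Unirradiated seedlings of both genotypes were taken on day 1 (10:45 am) and on day 2 (9:15 am). Each of the 22 groups has 2 arrays, and each array carries RNA pooled from about 30 to 40 plants. The labels do not say that replicates were separate cultures, so p-values measure the spread between these samples, which may be technical. HZE was given in 2 runs and the labels do not tie replicates to runs. Each comparison with a control at another clock hour holds radiation and time of day together. ATM was not analysed here, and no check of the mutant label on that gene was made.

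The plastid genome encodes core subunits of both photosystems, the cytochrome b6f complex, the ATP synthase and the NDH complex, the large subunit of Rubisco, and part of the ribosome and RNA polymerase that express them. Its genes lie largely in operons and are read by a bacterial-type polymerase, whose core is plastid-encoded and whose sigma factors come from the nucleus, and by a phage-type polymerase from the nucleus, which is known for reading rpoB and accD. Plastid messengers mostly lack stable poly(A) tails, and polyadenylation in plastids marks RNA for decay. The cDNA here was primed with poly(T), so the array values count only molecules that such primers reach. In whole seedlings, fewer plastids or green cells and less RNA per plastid cannot be told apart.

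Values are log2 expression, on which 1 unit is a 2-fold difference, and levels are compared only within a gene. Of the 69 members, 59 had a mean level above the 90th percentile of all genes (8.69), and 1, ndhF, lay below their median (5.45). Array medians ran from 5.73 to 5.98. Several arrays stood apart. In WT gamma 12 h the replicates differed across members with an SD of 0.46 against 0.17 across other genes, and replicate 2 was lower by 1.99 for ndhH, a subunit of the NDH complex. WT HZE 1.5 h replicates differed with an SD of 0.42 against 0.19, and atm-1 HZE 24 h replicates differed by 1.50 in rbcL. Replicate 1 of atm-1 gamma 6 h had the lowest array median. A control probe set for 5S ribosomal RNA read 5.54 to 6.53 in the day 1 controls, gamma 1.5 h and gamma 24 h groups of both genotypes, and 3.76 to 5.23 in all other groups. In the former arrays petN read 8.44 to 9.17, and in the others it read 8.69 or less, so that the ranges overlap. The part of the 5S difference in the plastid values was not tested. One for 25S ribosomal RNA read 9.78 to 10.77 in WT HZE 1.5 h, 11.15 to 11.98 in WT HZE 3 h, 9.99 to 10.48 in atm-1 HZE 1.5 h, and 5.47 to 7.37 elsewhere. The part of these differences in the results was not tested.

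**Figure D1:**
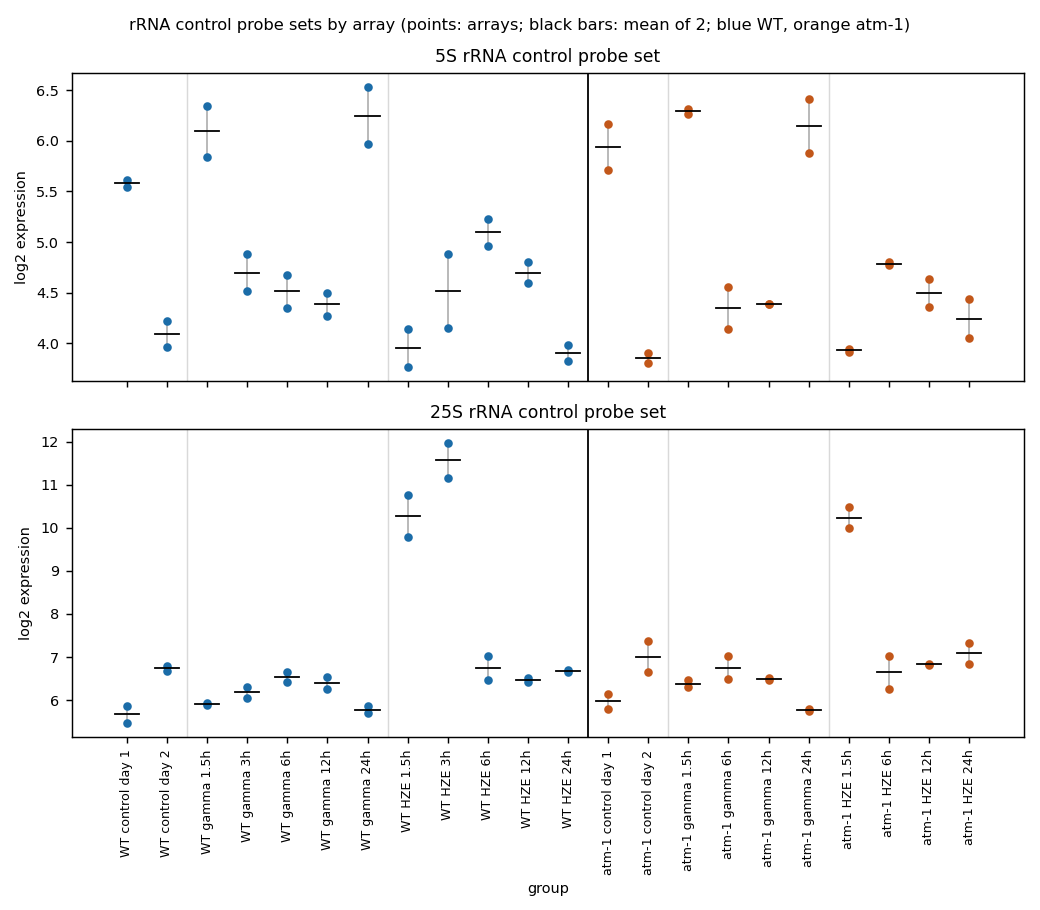
Log2 expression of 2 ribosomal RNA control probe sets (y axes) in each array by group (x axis), with 1 point per array and a bar for the mean of 2. The 5S probe set read 5.54 to 6.53 in 6 groups and no more than 5.23 in the others. The 25S probe set read 9.78 to 11.98 in the 3 earliest HZE groups.

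Some members changed little in any group. Over the 44 arrays, petB, for cytochrome b6 of the b6f complex, ranged from 13.30 to 13.67. The photosystem I core gene psaB ranged from 13.26 to 13.71 and the ribosomal protein gene rps4 from 13.07 to 13.48. Gene psbM, with a mean of 13.27, changed by up to 1.08, measured from its lowest group mean, 12.48 in the WT day 1 controls. Whether a high signal narrows the range of a gene was not tested. Genes petB, psaB and rps4, with ndhE, ndhK and petA, were the 6 members called in none of the 32 comparisons. Not all 6 were steady, since ndhK ranged from 8.96 to 10.51 and ndhE from 9.35 to 10.45. Set against unirradiated seedlings of the other day, ndhK was at -0.82 at WT gamma 12 h and -0.90 at atm-1 gamma 24 h. Both passed the test, as did petA at WT gamma 12 h and HZE 3, 6 and 12 h. Of the 6, psaB alone passed nowhere in that setting. The ATP synthase gene atpB stayed between 13.41 and 13.79 and passed the test in WT HZE 3 h and 6 h alone among the irradiated groups, at log2 0.21 (SE 0.08, adjusted p = 0.0426) and 0.23 (SE 0.08, adjusted p = 0.0329). Each of these calls was lost when any 1 of the 4 arrays it rests on was left out. Gene psbA, for the photosystem II reaction-centre protein that turns over in light, stayed between 12.20 and 12.74. The widest ranges were those of ndhH, from 7.24 to 10.31, of rps14 of the small ribosomal subunit, from 5.73 to 8.71, and of rbcL, from 9.53 to 12.20. The lowest ndhH and the highest rbcL value each came from an array that stood apart from its replicate. Next were petG and petN, for small subunits of the b6f complex, which ranged from 6.91 to 9.29 and from 6.86 to 9.17.

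**Figure D2:**
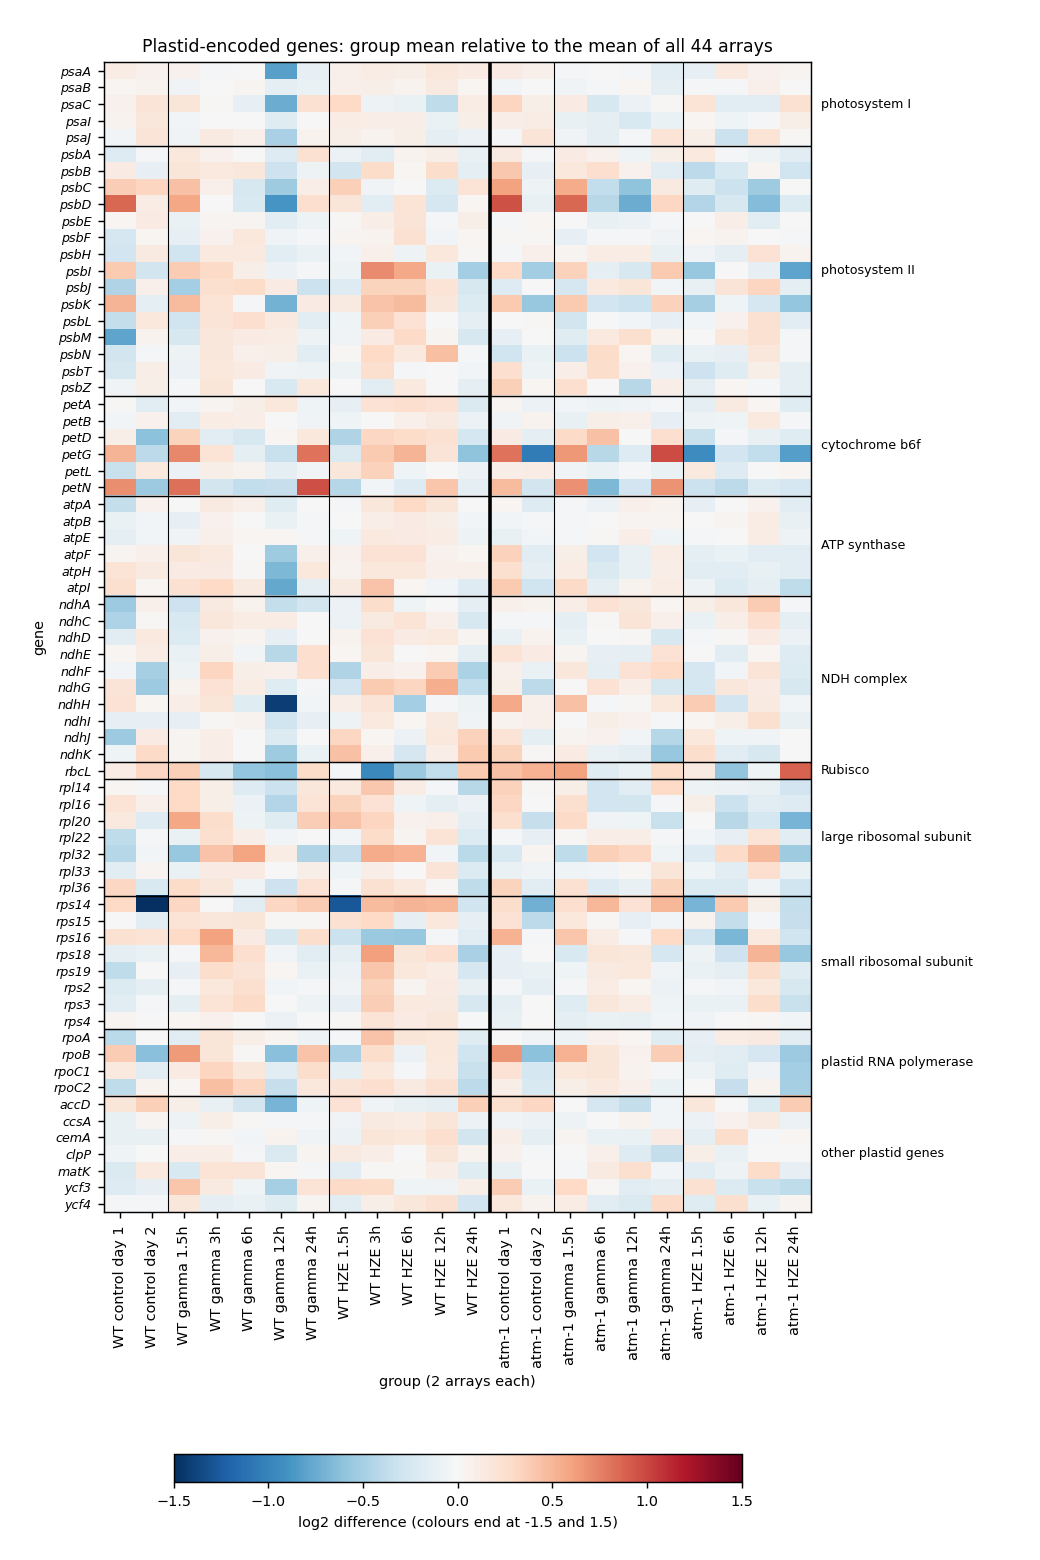
Mean log2 expression of each of the 69 plastid-encoded genes (rows, ordered by role) in each of the 22 groups (columns), relative to that gene's mean over 44 arrays. Red is above and blue below, and colours end at -1.5 and 1.5. The rows of psbD, petG, petN, rps14 and rpoB vary between groups, while psaB, petB, atpB and rps4 stay near white throughout.

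Unirradiated seedlings were compared first, since every other comparison rests on them. Between day 2 and day 1, over both genotypes, 9 members rose and 15 fell, 34.8% of the 69 beside 27.5% of all genes, 14.7% higher and 12.8% lower. The largest falls were in rps14, by 1.39 (SE 0.28, adjusted p = 0.000201), and in petG, by 1.38 (SE 0.22, adjusted p = 1.11e-05). Values of petG were 8.57 and 8.82 in WT on day 1 and 7.54 and 8.05 on day 2, and in atm-1 they were 9.13 and 8.88 against 6.91 and 7.38. The days did not overlap in either genotype. Next came rpoB, for the beta subunit of the bacterial-type polymerase, which fell by 1.14 (adjusted p = 3.32e-05), petN, which fell by 1.00 (adjusted p = 8.78e-05), and psbD, for a reaction-centre protein of photosystem II, which fell by 0.91 (adjusted p = 1.48e-05). The rises were smaller and in other genes. Photosystem II gene psbM rose by 0.48 (adjusted p = 0.0018), its small-subunit companions psbJ and psbL by 0.36 and 0.26 (adjusted p = 0.000677 and 0.00918), the NDH genes ndhA and ndhC by 0.30 and 0.24 (adjusted p = 0.0283 and 0.0146), and matK, for the plastid intron maturase, by 0.24 (adjusted p = 0.012). Of the genes followed throughout, psbB and rpoC1 each fell by 0.39 (adjusted p = 0.00962 and 0.00308). The member median was 0.01 beside 0.02 for all genes, so the changes ran both ways about the centre. The 5S control read 5.54 to 6.17 on day 1 and 3.81 to 4.22 on day 2. Leaving out 1 array in turn gave 16 to 25 members called. Between unirradiated atm-1 and WT, over both days, limma called 0 members (1.29% of all genes), with 7 at an unadjusted p under 0.05. Without replicate 2 of the WT day 1 control, 2 members were called. The root hair gene EXPA18 was lower in unirradiated atm-1, at -0.54 (limma adjusted p = 0.01).

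In WT after gamma rays, plastid genes changed in both directions. At 3 h and 6 h rpl32, rpoC2, psbM and psbJ rose and psbD and petN fell. At 1.5 h, 5 members rose and 0 fell (7.25% beside 17.1% of all genes, 8.3% higher and 8.84% lower). They were ycf3, for a photosystem I assembly factor, at 0.61 (SE 0.20, adjusted p = 0.0378), ndhJ at 0.58, psbM at 0.55, psbA at 0.35 and rpl22 at 0.29. Without replicate 1 of the WT day 1 control or replicate 2 of gamma 1.5 h this count was 0, and without replicate 2 of the WT day 1 control it was 3. At 3 h, 22 rose and 2 fell (34.8% beside 16.4%, 7.29% higher and 9.13% lower), with medians of 0.29 over the 19 gene expression genes and 0.14 over the 43 photosynthesis genes, beside -0.04 over all genes. Of the 8 small-subunit ribosomal genes 4 rose, as did 3 of 7 large-subunit genes, 2 of 4 polymerase genes and 6 of 15 photosystem II genes, while 0 of 5 photosystem I genes were called. The highest were psbM at 0.96 (SE 0.16, adjusted p = 6.02e-05), rpl32 at 0.86 (SE 0.18, adjusted p = 0.0011), rpoC2, for another polymerase subunit, at 0.83 (adjusted p = 0.000564), psbJ at 0.69 and ndhA at 0.68. At 6 h, 19 rose and 4 fell (33.3% beside 25.8%, 11.8% higher and 14% lower), led by rpl32 at 1.02 (SE 0.18, adjusted p = 7.91e-05), psbM at 0.91, psbJ at 0.73, rpoC2 at 0.70 and psbL at 0.61.

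Gene rpl32, for a protein of the large ribosomal subunit, read 9.66 and 10.10 in the WT day 1 controls, 10.61 and 10.85 at 3 h, and 10.89 in both arrays at 6 h. All irradiated arrays at these times lay above the controls of day 1 and of day 2 (10.22 and 10.31). At 3 h 11 members were called without gamma 3 h replicate 2. In the same WT groups the root hair genes EXPA7 and EXPA18, the 2 of 12 listed root markers that were measured, were at -0.83 and -0.73 at 1.5 h. At 3 h they were at -0.82 and -0.63 (adjusted p = 0.00963 and 0.00545) and at 6 h at -0.16 and -0.17, without passing the test, and their part in the plastid values was not tested. For psbD the day 1 controls read 11.87 and 11.97. The 3 h arrays read 11.14 and 10.96, the 6 h arrays 10.57 and 11.08, and the 12 h arrays 10.49 and 9.84. It fell by 0.87 at 3 h (SE 0.21, adjusted p = 0.00335), by 1.10 at 6 h (adjusted p = 0.000157) and fell by 1.76 at 12 h (adjusted p = 7.71e-08). At 12 h both arrays lay below all 4 WT controls, while at 3 h and 6 h they overlapped the day 2 controls (11.02 and 11.31). Without WT gamma 3 h replicate 2 the 3 h call on psbD was lost.

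At 12 h after gamma rays, 8 members rose and 17 fell (36.2% beside 28.3%, 13.6% higher and 14.7% lower; 11 and 15 with cyclic loess between arrays). Each photosynthetic complex had at least 1 gene called lower, for the NDH complex only ndhH, whose call rests on 1 array. Those called lower included 3 of 5 photosystem I genes, 4 of 15 photosystem II genes, 2 of 6 b6f genes, 2 of 6 ATP synthase genes, 1 of 10 NDH genes and rbcL, for the large subunit of Rubisco. After psbD the lowest were ndhH at -1.63 (SE 0.33, adjusted p = 0.00028), psbK at -1.23 (adjusted p = 0.00257), petN at -1.05 and rpoB at -1.01. The photosystem I core gene psaA was at -0.93 (adjusted p = 0.00215), accD, for a subunit of the acetyl-CoA carboxylase of fatty acid synthesis, at -0.88 (adjusted p = 0.00194), and rbcL at -0.74 (SE 0.28, adjusted p = 0.0458). Higher at the same time were psbM at 0.91, ndhC at 0.58, psbJ at 0.57, rpl32 at 0.54 and psbL at 0.51. Much of the fall lay in 1 array. For psaA the day 1 controls read 12.59 and 12.56 and the 12 h arrays 12.38 and 10.90, and for ndhH they read 9.73 and 10.00 against 9.23 and 7.24. Without replicate 2 of WT gamma 12 h, 14 members were called (16 without replicate 1 of the WT day 1 control), and the calls on psaA, ndhH, psbK, rpoB and accD were lost, while those on psbD, petN, psbM, psbJ and ndhC held without any 1 array.

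At 24 h after gamma rays, compared with day 2 controls, 10 members rose and 2 fell (17.4% beside 31.6%, 14.1% higher and 17.5% lower; 10 and 6 with cyclic loess). The rises were led by rps14 at 1.89 (SE 0.39, adjusted p = 0.000258), petN at 1.52 (adjusted p = 2.56e-05), petG at 1.21 (adjusted p = 0.00277), rpoB at 1.05 (adjusted p = 0.00335) and petD at 0.77 (adjusted p = 0.0269). The values of petN were 9.17 and 8.78 at 24 h, 7.49 and 7.42 in the day 2 controls, and 8.74 and 8.67 in the day 1 controls. In the same arrays the 5S control read 5.97 and 6.53 at 24 h, 3.97 and 4.22 on day 2 and 5.61 and 5.54 on day 1, and its part was not tested. The irradiated petN arrays thus lay above both day 2 arrays and above both day 1 arrays. Also changed were ndhF (0.74), rpoC1 (0.42) and psbA (0.26, adjusted p = 0.0437), which rose, and psbJ and psbL, which fell by 0.39 and 0.31. The psbA call was lost without either 24 h array or without replicate 1 of the day 2 control. The count was 6 without replicate 1 of gamma 24 h or without either day 2 control.

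In atm-1 after gamma rays the photosystem II genes psbD and psbC were among the falls at 6 and 12 h, and rpl32 and psbJ among the rises. At 1.5 h limma called 0 members (5.59% of all genes were called, 2.94% higher and 2.64% lower), and 1 had an unadjusted p under 0.05. At 6 h, 4 rose and 9 fell (18.8% beside 23%, 7.54% higher and 15.4% lower), and at 12 h, 3 rose and 12 fell (21.7% beside 23.5%, 11.4% higher and 12.1% lower). With cyclic loess these were 5 and 7, and 5 and 11. Values of psbD were 11.96 and 12.06 in the day 1 controls, 10.59 and 10.70 at 6 h, and 10.32 and 10.31 at 12 h, with no overlap. It fell by 1.37 (SE 0.21, adjusted p = 1.4e-05) and 1.69 (SE 0.21, adjusted p = 1.86e-07). The next gene of its operon, psbC, for an antenna protein of photosystem II, fell by 0.97 and 1.21 (adjusted p = 0.000133 and 3.28e-06). Both genes kept these day 1 calls without any 1 array. Set against day 2 controls, psbD and psbC were at -0.30 and -0.29 at 6 h and did not pass the test. Also lower at 6 h were petG (-1.23), petN (-1.15) and rpl14 (-0.63), and at 12 h petG (-1.01), psbZ (-0.78) and petN (-0.77). Gene accD was at -0.60 at 12 h (adjusted p = 0.0399), a call lost without any 1 of its 4 arrays. Higher at 6 h were rpl32 (0.58), psbN (0.57), psbJ (0.34) and rps3 (0.31), and at 12 h rpl32 (0.53), psbJ (0.37) and matK (0.35). At 24 h, 7 rose and 2 fell (13% beside 27.5%, 12.8% higher and 14.8% lower), with petG at 2.02 (SE 0.31, adjusted p = 6.29e-06), rps14 at 1.22, rpoB at 0.98, petN at 0.94 and psbI at 0.92 higher. The values of petG were 9.05 and 9.29 at 24 h, 6.91 and 7.38 in the day 2 controls and 9.13 and 8.88 in the day 1 controls, so the irradiated arrays overlapped day 1 and stood apart from day 2. The lower pair was clpP, for a subunit of the plastid protease, at -0.35 (adjusted p = 0.0095) and ndhD at -0.30. Without replicate 2 of the atm-1 day 1 control 7 members were called at each of 6 and 12 h, at 12 h 8 were called without replicate 1 of that control or of gamma 12 h, and at 24 h 4 without gamma 24 h replicate 2 and 5 without replicate 1 of the day 2 control.

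In WT after HZE, ribosomal protein and polymerase genes were among those higher, and rbcL, rps16, psbD and petN among those lower. At 1.5 h, 11 members rose and 8 fell (27.5% beside 41.6% of all genes, 20.9% higher and 20.6% lower). At 3 h 27 rose and 4 fell (44.9% beside 45.6%, 23.4% higher and 22.2% lower). At 6 h 17 rose and 3 fell (29% beside 31.6%, 14.1% higher and 17.5% lower; 31 and 3 with cyclic loess), and at 12 h 23 rose and 3 fell (37.7% beside 29%, 13.6% higher and 15.4% lower). At 24 h limma called 0 members (3.59% of all genes, 2.39% higher and 1.21% lower), with 11 at an unadjusted p under 0.05 and 1 called when eBayes used a trend. At 1.5 h the lowest were rps14 at -1.56 (SE 0.39, adjusted p = 0.00139), petN at -1.13, rpoB at -0.87, psbD at -0.69 and rps16, for a protein of the small ribosomal subunit, at -0.55. Highest were ndhJ at 0.86 (SE 0.18, adjusted p = 0.000282), psbM at 0.75, rpoC2 at 0.57, petL at 0.50 and ndhA at 0.46. The split of calls at this time depended on scaling, since cyclic loess between arrays gave 34 higher and 4 lower. Root hair genes EXPA7 and EXPA18 fell by 1.00 and 1.07 at 1.5 h and were at -0.86 and -0.90 at 3 h and -0.58 and -0.46 at 6 h, all past the test, and EXPA7 was at -0.74 at 12 h (adjusted p = 0.0112). Their part in the plastid values was not tested.

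At 3 h after HZE the rises held most roles: 4 of 8 small-subunit ribosomal genes, 3 of 7 large-subunit genes, 2 of 4 polymerase genes, 7 of 15 photosystem II genes, 5 of 10 NDH genes and 3 of 6 ATP synthase genes, with 0 of 5 photosystem I genes called. Of all genes 23.4% were called higher. The highest were rpl32 at 0.98 (SE 0.18, adjusted p = 3.95e-05), psbM at 0.91 (adjusted p = 1.9e-05), rpoA, for the alpha subunit of the polymerase, at 0.82 (SE 0.12, adjusted p = 7.24e-07), ndhA at 0.81 and rps19 at 0.80 (SE 0.13, adjusted p = 2.74e-06). These 5 calls held without any 1 array. The values of rpoA were 12.43 and 12.31 at 3 h, 11.44 and 11.65 in the day 1 controls and 11.92 and 11.95 in the day 2 controls. Its irradiated arrays were above all 4 WT controls. The values of rbcL were 9.53 and 9.67 at 3 h, 10.68 and 10.67 in the day 1 controls and 10.80 and 10.96 in the day 2 controls, so both irradiated arrays lay below all 4. It fell by 1.08 (SE 0.28, adjusted p = 0.00168), and psbD, rps16 and petN fell by 1.03, 0.78 and 0.74 (adjusted p = 0.000112, 0.00182 and 0.0205). The call on petN was lost without WT HZE 3 h replicate 2 or without either day 1 control, and those on rbcL, psbD and rps16 held.

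At 6 h after HZE the highest members were psbM at 1.08 (SE 0.16, adjusted p = 3.49e-06), rpl32 at 0.94 (adjusted p = 0.000145), psbJ at 0.78, ndhC at 0.67 and atpA, for the alpha subunit of the ATP synthase, at 0.65. Lower were petN at -0.89, rps16 at -0.80 (SE 0.20, adjusted p = 0.00261) and psbD at -0.66, and rbcL was at -0.67 without passing the test. At 12 h the highest were psbM at 0.83, psbN at 0.73, ndhJ at 0.70, psbJ at 0.66 and rpoC2 at 0.62, and the 3 lower members were psbD at -1.11 (SE 0.21, adjusted p = 0.000104), psbC at -0.57 and rpl16 at -0.34. Many WT rises share a feature of their control. For psbM the WT day 1 arrays read 12.16 and 12.80, while the other 42 arrays ran from 12.77 to 13.62. Without replicate 1 of the WT day 1 control, the members called numbered 8 at gamma 3 h, 15 at gamma 6 h, 6 at HZE 1.5 h, 21 at HZE 3 h, 12 at HZE 6 h and 11 at HZE 12 h. Further counts that moved were 10 at HZE 1.5 h without its replicate 1 and 17 at HZE 12 h without its replicate 1.

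In atm-1 after HZE, falls outnumbered rises at 1.5 and 6 h against day 1 controls, but not against day 2 controls. At 1.5 h, 0 members rose and 13 fell (18.8% beside 36.8% of all genes, 19.3% higher and 17.6% lower). At 6 h 2 rose and 15 fell (24.6% beside 23.3%, 12.2% higher and 11.2% lower; 5 and 13 with cyclic loess), and at 12 h 8 rose and 9 fell (24.6% beside 18.3%, 8.72% higher and 9.57% lower). At 24 h limma called 0 (1.55% of all genes, 1.13% higher and 0.419% lower), with 3 at an unadjusted p under 0.05 and 1 called when eBayes used a trend. At 1.5 h petG fell by 1.75 (SE 0.31, adjusted p = 2.75e-05), psbD by 1.39 (SE 0.21, adjusted p = 2.19e-06), psbK by 0.90, psbI by 0.88 and rps16 by 0.82 (adjusted p = 0.00148), and psbB, for another antenna protein of photosystem II, by 0.79 (adjusted p = 0.000152). Cyclic loess gave 13 higher and 11 lower at this time. At 6 h rps16 fell by 1.21 (SE 0.20, adjusted p = 3.1e-05), psbD by 1.19, petG by 1.10, rbcL by 1.03 (SE 0.28, adjusted p = 0.00611) and psbC by 0.93, while rpl32 (0.51) and psbJ (0.38) rose. The rbcL values were 9.86 and 10.10 at 6 h, 10.97 and 11.04 in the day 1 controls and 10.73 and 11.46 in the day 2 controls, with no overlap. Its call was lost without replicate 1 of atm-1 HZE 6 h. At 12 h psbD was at -1.61 (SE 0.21, adjusted p = 7.31e-07), petG at -1.18, psbC at -1.14, rpoB at -0.91 and ycf3 at -0.71, and rpl32 (0.71), rps18 (0.64), psbJ (0.52), psbN (0.47) and rps3 (0.40) were higher. Root hair gene EXPA18 was at 0.50 at 12 h (adjusted p = 0.0263), as it was at 0.53 and 0.55 at gamma 1.5 h and 6 h in this genotype (adjusted p = 0.0421 and 0.0111). Without replicate 2 of the atm-1 day 1 control 7 members were called at each of 1.5, 6 and 12 h. Without an irradiated array the counts were 7 at 1.5 h (replicate 1), 9 at 6 h (replicate 1), and 10 and 7 at 12 h (replicates 1 and 2), and at 12 h 10 were called without replicate 1 of the day 1 control. Set against day 2 controls, 1 member rose and 0 fell at 1.5 h, and 3 rose and 3 fell at 6 h. Of all genes 27.4% and 28.3% were called there. Of the falls against day 1, 0 held at 1.5 h and 2 at 6 h.

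**Figure D3:**
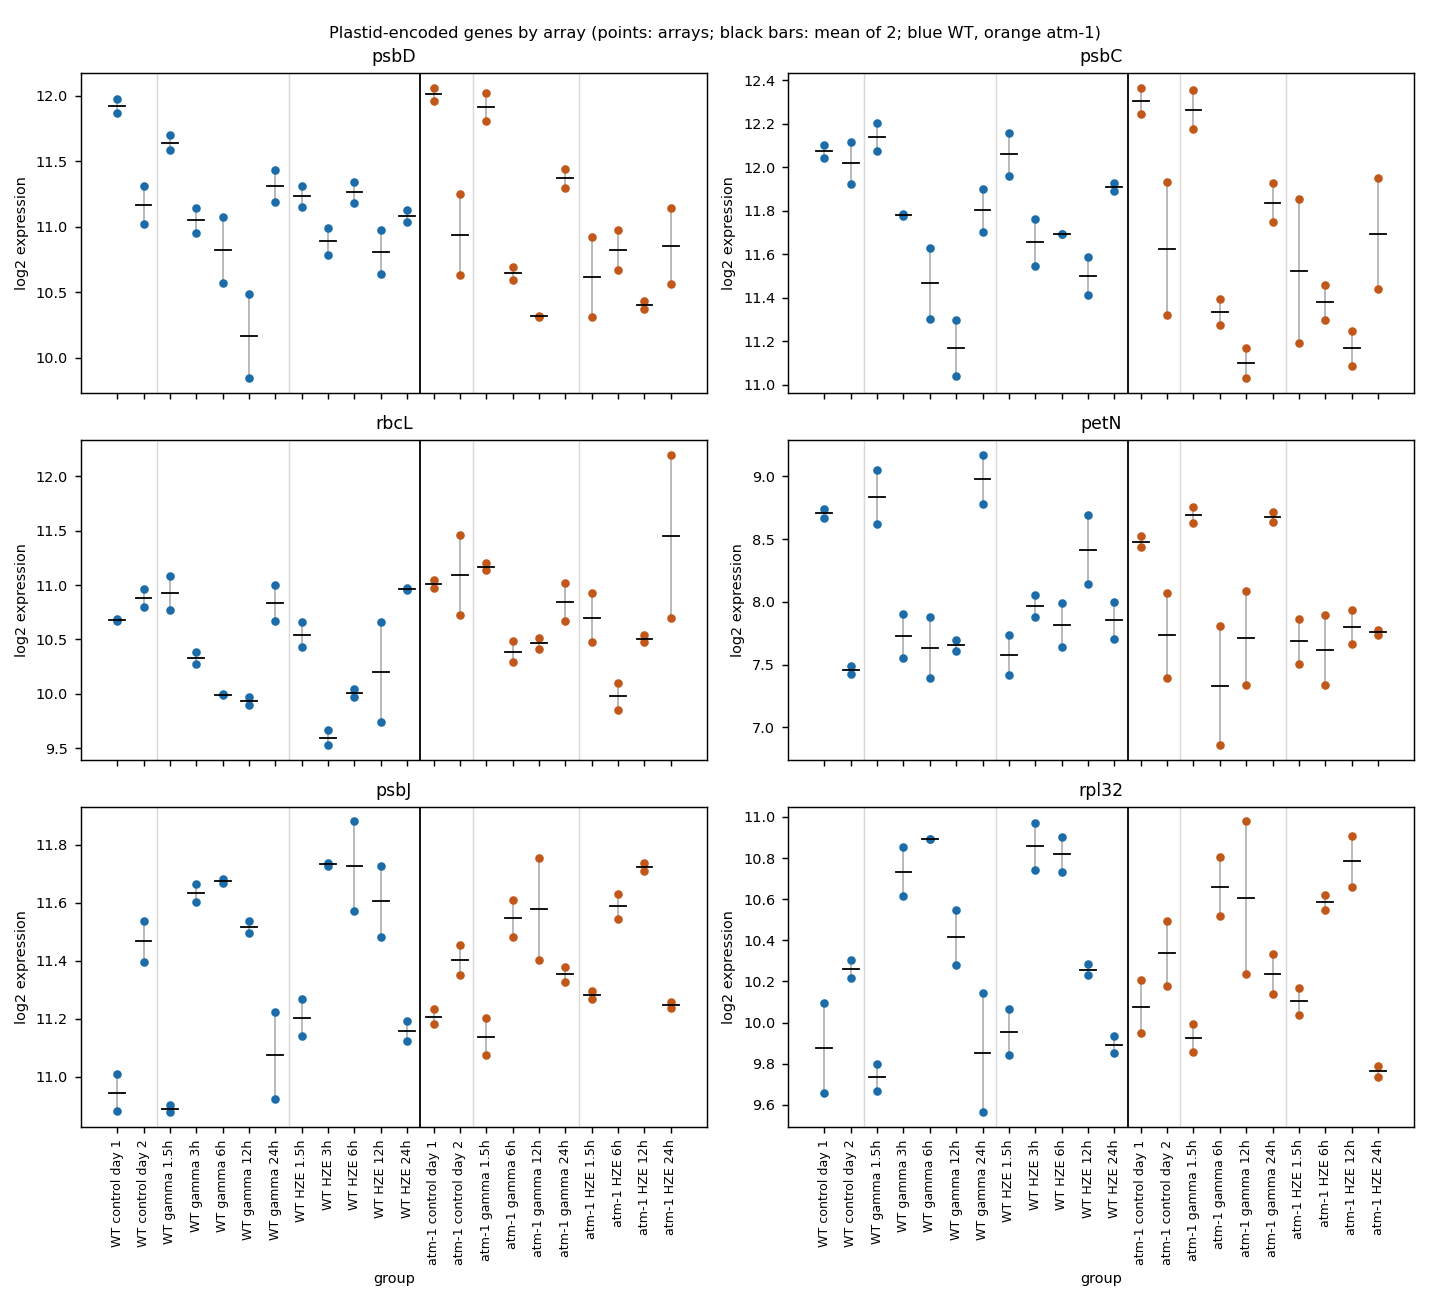
Log2 expression (y axes) of psbD, psbC, rbcL, petN, psbJ and rpl32 in every array, by group (x axis), with 1 point per array and a bar for the mean of 2, WT in blue and atm-1 in orange. In both genotypes psbD is highest in the day 1 controls and gamma 1.5 h (11.58 to 12.06), and petN reads 8.44 to 9.17 in those groups and at gamma 24 h, against 8.69 or less elsewhere. The lowest rbcL values, 9.53 and 9.67, are those of WT HZE 3 h.

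The choice of control day decided most of these calls. Over the 18 irradiated comparisons there were 269 member calls, 166 higher and 103 lower. When each group was set against the unirradiated seedlings of its genotype from the other day, 52 kept their direction and passed the test again, 27 higher and 25 lower. Of the higher calls, 18 of 63 on gene expression genes held, 5 of 92 on photosynthesis genes and 4 of 11 on others. Of the lower calls, 5 of 34, 17 of 63 and 3 of 6 held. The share of calls kept was not computed over all genes, so it cannot be read as particular to plastid genes or to a class. Calls within a genotype share the same control arrays. The gene expression genes that held were rps2 and rps18 at WT gamma 3 h, rpl32, rps2 and rps3 at WT gamma 6 h, rpl32, rps2, rps3, rps18, rps19, rpl22 and rpoA at WT HZE 3 h, rpl32 at WT HZE 6 h, rps2 at WT HZE 12 h, and rps3, rps18, rps19 and rpl33 at atm-1 HZE 12 h. The photosynthesis genes were ndhI at WT HZE 3 h and 12 h, psbN at WT HZE 12 h, psbA at WT gamma 24 h and psbJ at atm-1 HZE 12 h. Against day 2 controls, rpl32 was at 0.63 at WT gamma 6 h (adjusted p = 0.0115), 0.60 at HZE 3 h (adjusted p = 0.00996) and 0.56 at HZE 6 h (adjusted p = 0.0191), and rps3 at 0.32, 0.40 and 0.18 (adjusted p = 0.0153, 0.00099 and 0.164). For rps2 the change at HZE 3 h was 0.55 against day 1 (SE 0.10, adjusted p = 2.9e-05) and 0.48 against day 2 (adjusted p = 0.000224). Its values were 11.95 and 11.73 at 3 h, and 11.25, 11.33, 11.41 and 11.30 in the 4 WT controls.

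On the lower side the calls that held under both days included rbcL at WT HZE 3 h (-1.28 against day 2, adjusted p = 0.000356), WT gamma 12 h (-0.94, adjusted p = 0.00947) and atm-1 HZE 6 h (-1.12, adjusted p = 0.00237). They included rps16 at WT HZE 1.5, 3 and 6 h (-0.53, -0.76 and -0.78) and atm-1 HZE 6 h (-0.66). Photosystem II gene psbD held at WT gamma 12 h, where it fell by 1.00 against day 2 (adjusted p = 0.000364), and at atm-1 gamma 12 h (-0.62, adjusted p = 0.0265), with psbC in both and also at WT gamma 6 h and HZE 12 h. At the other times at which psbD was called against day 1, it was at -0.54 to 0.10 against day 2 and did not pass. Against day 2, rbcL also passed at WT gamma 6 h (-0.89, adjusted p = 0.0196) and HZE 6 h (-0.87, adjusted p = 0.0158), where it had missed the threshold against day 1. The gene rps14 went from -1.56 to 0.25 at WT HZE 1.5 h and from 1.89 to 0.09 at WT gamma 24 h, and petG at atm-1 gamma 12 h went from -1.01 to 0.85, past the test in the opposite direction (adjusted p = 0.0424). At 24 h after gamma rays the calls that held were psbA higher in WT (0.42 against day 1, adjusted p = 0.0019) and clpP lower in atm-1 (-0.42, adjusted p = 0.0032).

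**Figure D4:**
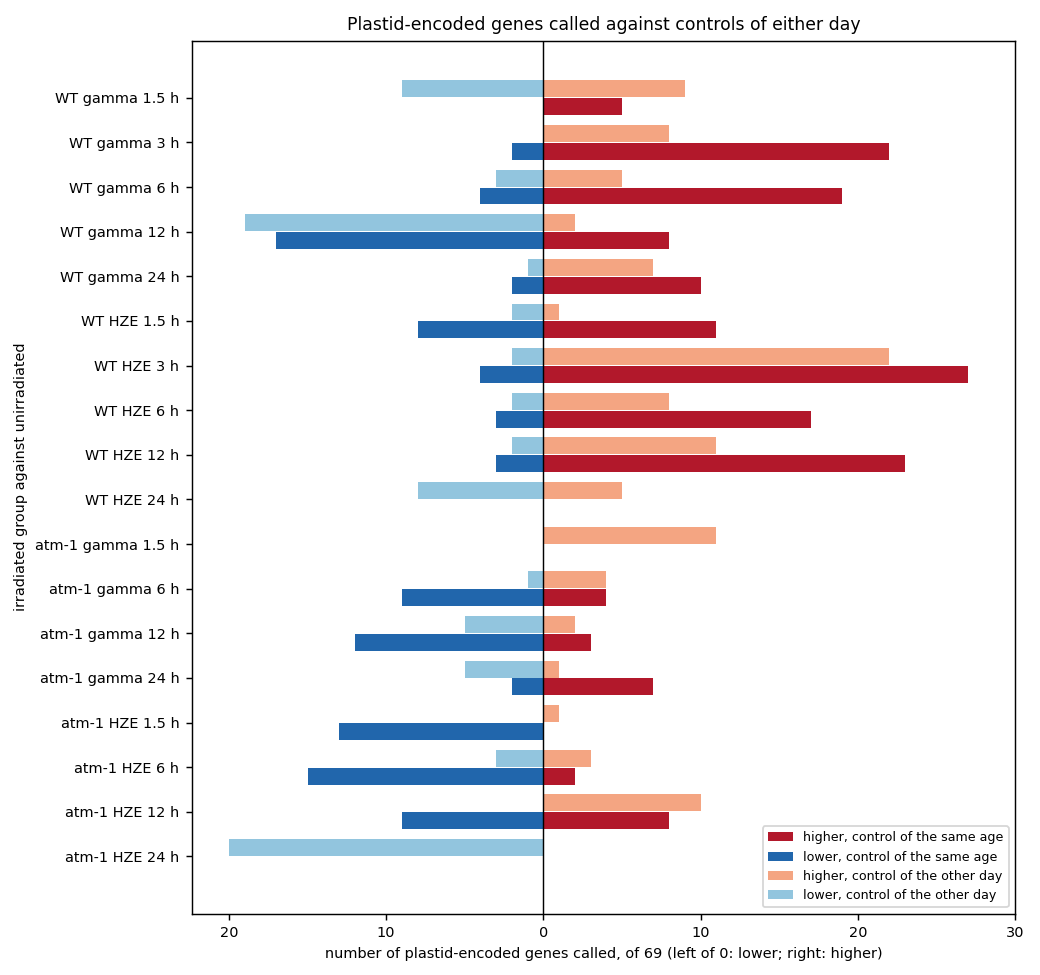
Number of the 69 plastid-encoded genes called higher (right of 0) and lower (left of 0) in each irradiated group (y axis) against the control of the same age (dark bars) and the control of the other day (light bars). Of 269 calls made with the first, 52 were made again in the same direction with the second. At atm-1 HZE 24 h the count went from 0 to 20, while the share of all genes called went from 1.55% to 21.8%.

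Photosynthesis genes were set beside gene expression genes in each array as the difference between the means of the 43 and of the 19. This difference describes the arrays and was not tested. It ran from 0.15 to 0.75, with an SD within groups of 0.10. By group it was lowest in WT gamma 12 h (0.32), WT HZE 3 h (0.33), WT gamma 3 h (0.34) and atm-1 gamma 6 h (0.36), and highest in atm-1 HZE 24 h (0.69), WT HZE 24 h (0.65) and the day 2 controls (0.62 in WT and 0.57 in atm-1). The day 1 controls were at 0.50 and 0.53. The low value at WT gamma 12 h rests on replicate 2, at 0.15, while replicate 1 was at 0.49. Within classes the calls split as well. At WT gamma 12 h 17 of 43 photosynthesis genes were called, with a median of -0.18, and 7 of 19 gene expression genes, with a median of 0.02. At WT HZE 3 h the counts were 19 of 43 and 10 of 19, with medians of 0.17 and 0.30. Of all genes 28.3% were called at WT gamma 12 h and 45.6% at WT HZE 3 h. Of the genes known for transcription by the nuclear phage-type polymerase, accD, rpoB, rpoC1 and rpoC2 were measured. At WT gamma 3 h rpoC2 was at 0.83 while the median of the 4 was -0.01, and at WT gamma 12 h 2 were called lower, with a median of -0.60. In atm-1 all 4 were below 0 at gamma 1.5 h and 12 h and at HZE 1.5, 6 and 12 h, with 0, 1, 1, 2 and 1 of them called lower. Of all genes 2.64%, 12.1%, 17.6%, 11.2% and 9.57% were called lower there. Against day 2 controls rpoB and rpoC1 were above 0 at each of these times, rpoC2 at all but HZE 6 h, and accD at none. At gamma 1.5 h rpoB and rpoC1 then passed the test as higher, at 1.14 and 0.43 (adjusted p = 0.00246 and 0.0271). At gamma 12 h accD was lower, at -0.66 (adjusted p = 0.02).

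**Figure D5:**
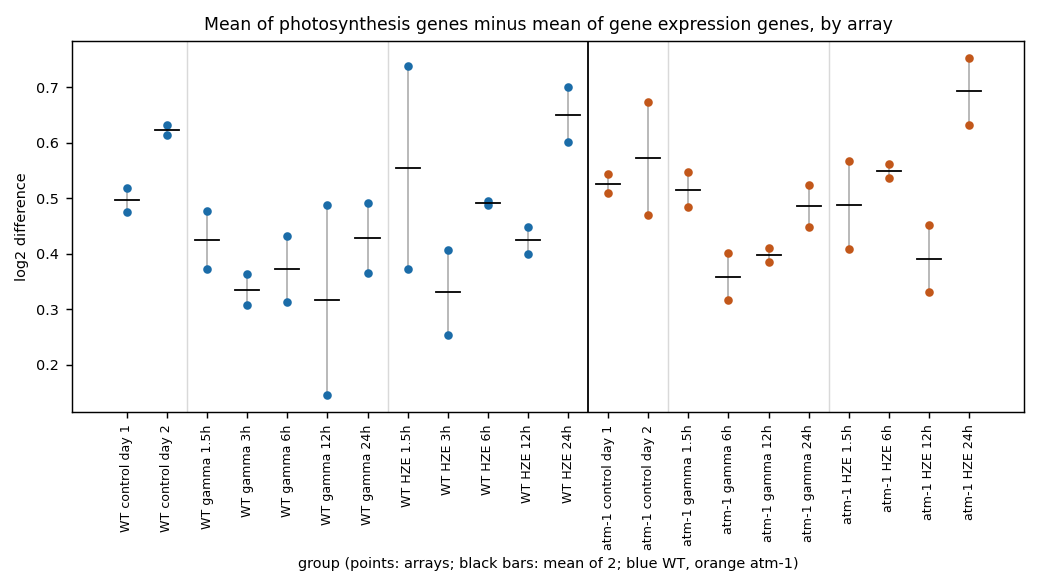
Mean log2 expression of 43 plastid photosynthesis genes minus that of 19 plastid gene expression genes (y axis) in each array by group (x axis), with 1 point per array and a bar for the mean of 2. Values run from 0.15 to 0.75. Replicates of WT gamma 12 h and of WT HZE 1.5 h are the farthest apart.

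Genes of 1 operon did not always change together. In the operon that runs from rpl23 to rpoA, 7 of 11 genes are members. At WT HZE 12 h, 4 of them rose, rpl22 by 0.59, rpoA by 0.56, rps19 by 0.50 and rps3 by 0.31, while rpl16 was lower at -0.34. Against day 2 controls they were at 0.22, 0.17, 0.12, 0.17 and -0.21, in that order, and did not pass the test. Of all genes 13.6% were called higher and 15.4% lower at WT HZE 12 h against day 1. At atm-1 HZE 12 h rps3 and rps19 rose by 0.40 and 0.38 and rpl16, rpl14 and rpl36 were lower at -0.47, -0.46 and -0.39 (adjusted p = 0.00975, 0.0371 and 0.0197). Against day 2 controls these 3 were at -0.17, -0.12 and 0.10 and did not pass the test, while rps3 and rps19 did. Of all genes 8.72% were called higher and 9.57% lower at atm-1 HZE 12 h against day 1. Genes psbD and psbC were both called lower in 8 of the 18 irradiated comparisons, in which 0.419% to 22.2% of all genes were called lower. The psbE operon had 3 of 4 genes higher at 3 h and 6 h after both radiations in WT. Against day 2 controls none of the 4 passed the test at these times. Of all genes 7.29% and 11.8% were called higher at WT gamma 3 h and 6 h against day 1. At WT HZE 3 h and 6 h these shares were 23.4% and 14.1%. The neighbours petN and psbM ran in opposite directions at WT gamma 6 h against day 1, at -1.07 and 0.91. Against day 2 they were at 0.18 and 0.07 and did not pass.

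The difference between genotypes was tested by subtracting the atm-1 change from the WT change at matched times, each genotype relative to its own controls. Few members passed, and all that did were more positive in WT. At gamma 6 h they were psbL at 0.61 (SE 0.15, adjusted p = 0.0154) and ndhC at 0.54 (SE 0.15, adjusted p = 0.0246), 2 of 69 beside 6.18% of all genes. At HZE 6 h there were 6 beside 5.9% of all genes: rpoC2 at 0.96 (SE 0.24, adjusted p = 0.0105), psbM at 0.80, atpA at 0.68, ndhC at 0.55, psbL at 0.52 and rpl22 at 0.51. At HZE 12 h there were 2 beside 4.69%, ndhJ at 0.95 (SE 0.26, adjusted p = 0.0286) and psbA at 0.48 (SE 0.14, adjusted p = 0.037). By limma 0 members were called at gamma 1.5, 12 and 24 h (5.65%, 1.28% and 0.202% of all genes) and at HZE 1.5 and 24 h (2.68% and 0.127%), with 8, 10, 2, 17 and 0 at an unadjusted p under 0.05. With a trend in eBayes 1 was called at gamma 12 h and 1 at HZE 1.5 h. At HZE 6 h 65 of 69 members were on the positive side, with a median of 0.36 beside -0.06 for all genes. Between the genotypes the root hair genes differed as well, EXPA7 by -1.12 and EXPA18 by -1.26 at gamma 1.5 h and EXPA18 by -0.93 at HZE 1.5 h (adjusted p = 0.0284, 0.000407 and 0.0157), and their part was not tested.

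Array values place part of each genotype difference in the controls. For psbM the day 1 controls read 12.16 and 12.80 in WT and 13.21 and 13.08 in atm-1, and the HZE 6 h arrays 13.58 and 13.54 against 13.36 and 13.50. The gap between genotypes was wider in the controls than after irradiation. For ndhC the controls read 10.57 in both WT arrays and 11.03 and 11.00 in atm-1, and the HZE 6 h arrays 11.19 and 11.30 against 11.19 and 11.09. For rpoC2 the controls read 9.82 and 10.04 against 10.50 and 10.34, and the HZE 6 h arrays 10.51 and 10.40 against 9.95 and 10.00. In this gene both the controls and the irradiated groups stood apart, in opposite directions, as they did for psbA at HZE 12 h, where the controls read 12.24 and 12.30 in WT and 12.53 and 12.66 in atm-1, and the irradiated arrays 12.54 and 12.55 against 12.42 and 12.35. Without replicate 1 of the WT day 1 control, 0 members were called at gamma 6 h, HZE 6 h and HZE 12 h. The count was also 0 without replicate 1 of the atm-1 day 1 control at gamma 6 h and HZE 6 h, without atm-1 gamma 6 h replicate 1, and at HZE 12 h without atm-1 HZE 12 h replicate 2 or replicate 2 of the atm-1 day 1 control. It rose to 6 at gamma 6 h without atm-1 gamma 6 h replicate 2. At gamma 12 h 4 were called without WT gamma 12 h replicate 1.

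Groups harvested at nearly the same hour after HZE and gamma rays were also compared, at different doses and times after irradiation, so radiation, dose and time since irradiation cannot be told apart. In WT, HZE 1.5 h against gamma 6 h gave 2 members higher and 8 lower (14.5% beside 39.4% of all genes). The lower side was led by rps14 (-1.11), rpl32 (-0.94, SE 0.18, adjusted p = 9.34e-05), psbJ (-0.47), psbB (-0.44) and rps3 (-0.41), and the higher members were psbC (0.59) and rpl16 (0.42). In atm-1 the same comparison gave 1 higher, rpl16 (0.38), and 9 lower (14.5% beside 39.9%), led by rps14 (-1.20), petD (-0.77), psbB (-0.64), psbT (-0.57) and rpl32 (-0.56). Cyclic loess gave 11 higher and 6 lower in WT and 12 higher and 8 lower in atm-1. The count was 6 without WT gamma 6 h replicate 1, and in atm-1 4 without HZE 1.5 h replicate 2 and 5 without gamma 6 h replicate 2. In WT, HZE 6 h against gamma 12 h gave 20 higher and 0 lower (29% beside 22.8%), led by psbK (1.19), psbD (1.10, SE 0.21, adjusted p = 0.00016), ndhH (0.91), psaA (0.90) and petG (0.85). Without replicate 2 of WT gamma 12 h this count was 3, without HZE 6 h replicate 1 or 2 it was 6 or 8, and psbD kept its call without any 1 array. In atm-1 the comparison gave 3 higher and 2 lower (7.25% beside 19.6%): psbZ and ycf4 at 0.45 each, cemA at 0.36, rps16 at -0.65 and matK at -0.32. Without atm-1 gamma 12 h replicate 1 or HZE 6 h replicate 1, 1 was called. In these comparisons EXPA7 and EXPA18 were at -0.83 and -0.91 for WT HZE 1.5 h against gamma 6 h and -0.61 and -0.65 for WT HZE 6 h against gamma 12 h, and EXPA18 was at -0.70 for atm-1 HZE 1.5 h against gamma 6 h, all past the test. Their part in the plastid values was not tested.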

How the data were processed

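Messenger RNA was measured on 44 single-colour Affymetrix arrays of whole seedlings in 22 groups of 2. Values deposited by the authors are on a log2 scale, 1 per probe set and array, and GCOS 1.2, RMA and affy are the tools named, per the submitters' processing notes. RMA settings are not given in the sources used here. The values were used without further normalisation, and precision is limited by the number of arrays.

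The array holds 22810 probe sets: 64 controls, not tested, 13513 with 1 gene, 503 with several and 8730 with none. The gene table (TAIR10.1, names only) matched 13286 of 13356 genes. The probe set with the highest mean stood for each gene. One group-means model was fitted to all arrays with limma 3.58.1 in R 4.3.3 (eBayes, no trend; residual degrees of freedom 22, prior 7.82). Benjamini-Hochberg adjustment ran over the 13356 genes within a comparison, and "called" means below 0.05 after it. Controls were the unirradiated seedlings of the same genotype, those of day 2 for the 24 h groups and those of day 1 for all earlier ones. The model was tested on simulated data.

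The members and gene lists were chosen with earlier results of these data known. Named genes are a fixed set (psbA, psbD, psbB, psaA, psaB, petB, atpB, ndhF, rbcL, rpoB, rpoC1, rps4, accD, clpP and matK; rpl2 and ycf1 have no single-gene probe set) and the 5 highest and 5 lowest called members of each comparison, followed across comparisons. Genes named outside this rule, such as those that kept their call under both control days or share an operon, were chosen after their values were seen. Alternatives were cyclic loess, eBayes with trend, a filter at the 25th percentile, a replicate block, controls of both days, leaving out each array and, added after seeing the data, controls of the other day. Correlations of same-numbered deviations between each irradiated group and its control ran from -0.10 to 0.17, and the main model did not pair samples by number. Pairing among the irradiated groups was not tested.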

Additional observations from a re-analysis of the deposited data

Results flagged for a closer look

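Of the results above, 10 were marked because the change differed between the genotypes by the test of the difference itself. At gamma 6 h the change in WT minus that in atm-1 was 0.54 for ndhC and 0.61 for psbL. At HZE 6 h it was 0.51 for rpl22, 0.96 for rpoC2, 0.80 for psbM, 0.55 for ndhC, 0.52 for psbL and 0.68 for atpA, and at HZE 12 h 0.95 for ndhJ and 0.48 for psbA. The 25S ribosomal RNA control probe set, which enters no comparison, was above its level in the unirradiated arrays in 3 groups, with lower arrays of 9.78 in WT HZE 1.5 h, 11.15 in WT HZE 3 h and 9.99 in atm-1 HZE 1.5 h. Groups of 2 arrays are too small for a test of single outlying arrays.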

How the results depend on the processing

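With 2 arrays a group, replication limits every test: of 188 named gene results, 67 kept their call without any 1 array. The causes of the shifts below were not tested. Controls of the other day turned the sign of 32 of the 140 named results they could be applied to. Shown against the main count in brackets, cyclic loess gave 38 (19) at WT HZE 1.5 h, 34 (20) at WT HZE 6 h, 24 (13) at atm-1 HZE 1.5 h, 17 (10) and 20 (10) for HZE 1.5 h against gamma 6 h in WT and atm-1, and 1 (0), 2 (0) and 4 (2) for the genotype differences at gamma 12 h, HZE 1.5 h and HZE 12 h. It moved the median of all genes by -0.04 to 0.07. A trend in eBayes gave 1 (0) at WT and atm-1 HZE 24 h and for the genotype differences at gamma 12 h and HZE 1.5 h, the last also 1 with only probe sets above the 25th percentile. Controls of both days gave 8, 14, 4, 3 and 3 at WT gamma 1.5, 3 and 24 h and HZE 1.5 and 24 h, and 1, 8, 5, 8, 10 and 13 at atm-1 gamma 1.5, 12 and 24 h and HZE 1.5, 6 and 24 h. Controls of the other day, chosen after seeing the data, gave 18, 8 and 8 at WT gamma 1.5, 3 and 6 h, 3, 10, 13 and 13 at WT HZE 1.5, 6, 12 and 24 h, 11, 5 and 7 at atm-1 gamma 1.5, 6 and 12 h, and 1, 6, 10 and 20 at atm-1 HZE 1.5, 6, 12 and 24 h. Of all genes 21.6% to 32.2% were called in these comparisons with controls of the other day. For cyclic loess, a trend, the filter and controls of both days the share of all genes was not computed. The member counts under those settings therefore cannot be read as particular to plastid genes.

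The median change of photosynthesis genes minus that of gene expression genes moved with controls of both days to -0.22 at WT gamma 6 h, -0.14 at WT HZE 12 h and 0.24 at atm-1 HZE 24 h, and with those of the other day to -0.26, 0.010, -0.30 and -0.17 at WT gamma 3 and 24 h and HZE 3 and 12 h, and -0.19 and 0.31 at atm-1 HZE 12 and 24 h. Leaving out 1 array gave -0.18 to 0.015 at WT gamma 6 h, -0.30 to 0.043 at gamma 12 h, -0.10 to 0.16 at HZE 1.5 h, -0.26 to -0.077 at HZE 3 h, -0.18 to -0.041 at atm-1 gamma 6 h and -0.22 to 0.022 at atm-1 HZE 12 h.

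Counts without 1 array ran, in WT at gamma 1.5, 3, 6, 12 and 24 h, from 0 to 5, 8 to 22, 15 to 23, 14 to 28 and 6 to 9, and at HZE 1.5, 3, 6, 12 and 24 h from 6 to 16, 21 to 28, 12 to 21, 11 to 23 and 0 to 0. In atm-1 they ran at gamma 1.5, 6, 12 and 24 h from 0 to 0, 7 to 13, 7 to 11 and 4 to 7, and at HZE 1.5, 6, 12 and 24 h from 7 to 14, 7 to 12, 7 to 10 and 0 to 1. For genotype differences they ran at gamma from 0 to 2, 0 to 6, 0 to 4 and 0 to 0, and at HZE from 0 to 2, 0 to 6, 0 to 2 and 0 to 0. For HZE 1.5 h against gamma 6 h and HZE 6 h against gamma 12 h they ran from 6 to 11 and 3 to 25 in WT and from 4 to 11 and 1 to 4 in atm-1, and for unirradiated genotype and day from 0 to 2 and 16 to 25.

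With controls of the other day, these changes took the opposite sign. In WT gamma they were ndhJ -0.087, psbM -0.29 and rpl22 -0.079 at 1.5 h, petN 0.27 at 3 h, petN 0.18 and rpl36 0.16 at 6 h, psbL -0.011 and petN 0.20 at 12 h, and psbJ 0.13 and psbL 0.20 at 24 h. In WT HZE they were psbM -0.095, ndhA -0.16, rps14 0.25, petN 0.12, rpoB 0.14 and psbD 0.067 at 1.5 h, petN 0.51 at 3 h, petN 0.36 and psbD 0.10 at 6 h, and psbM -0.011 and matK -0.038 at 12 h. In atm-1 they were petG 0.63 at gamma 6 h, petG 0.85 at gamma 12 h, rpoB -0.29 at gamma 24 h, petG 0.11, psbK 0.062 and rpoB 0.46 at HZE 1.5 h, petG 0.76, rpoC1 0.087 and rpoB 0.45 at HZE 6 h, and petG 0.68 and rpoB 0.36 at HZE 12 h. The value of ndhH, WT HZE 6 h minus gamma 12 h, was -0.091 without WT gamma 12 h replicate 2 and 1.90 without replicate 1. With a replicate block 186 of 188 named results kept their call, rpl22 at WT gamma 1.5 h (0.29) and rpl16 at WT HZE 12 h (-0.34) did not, and no count changed by over 1.5 times. The alternative without loci of the inverted repeat was not run, since no member is one.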

Other observations

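Of 53 listed nuclear genes for photosystem, b6f, ATP synthase and antenna proteins, 8 had a probe set of their own. At 24 h after gamma rays 6 of the 8 fell and 0 rose in each genotype, with medians of -0.49 in WT and -0.40 in atm-1, where the plastid medians were 0.01 and 0.05. Of all genes 17.5% and 14.8% were called lower there. Between unirradiated day 1 and day 2, whose day 2 arrays are the controls at 24 h, 6 of the 8 rose and 0 fell, with a median of 0.26. At WT gamma 6 h 5 rose and 0 fell, with a median of 0.30, where 11.8% of all genes were called higher. The antenna gene LHCB4.2 was at -1.82 at WT gamma 12 h and -2.53 at WT HZE 12 h. In atm-1 it was at -1.73 and -2.74 in the same comparisons. Most of the 8 did not fall with it. At WT gamma 12 h 4 of the 8 rose and 1 fell, with a median of 0.26. At WT HZE 12 h 3 rose and 2 fell, with a median of 0.14. These groups and their controls were sampled at different clock hours, and the part of clock hour was not tested.

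Probe sets that list several genes, and so name no member, include those of ndhB, of the NDH complex, and ycf2, both in the inverted repeat. The ndhB probe set was at 1.88 at WT gamma 24 h, 1.27 at atm-1 gamma 24 h and -1.05 at WT HZE 1.5 h, and the ycf2 probe set at 1.07, 0.73 and -0.83. In unirradiated seedlings day 2 minus day 1 was -1.49 for ndhB and -0.95 for ycf2. The rps12 probe sets went the other way, at -0.73 and -0.53 at WT gamma 24 h and 0.91 and 0.77 at WT HZE 1.5 h. Those of rpl2, rpl23, rps7 and ycf1 were at 0.06, 0.13, -0.10 and -0.05 at WT gamma 24 h. At WT HZE 1.5 h they were at 0.09, 0.09, 0.27 and 0.19. Probe sets with several genes were not tested.

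Of the other listed genes, the nuclear phage-type polymerase of plastids and mitochondria (AT5G15700) was at 0.74 at WT gamma 24 h and -0.62 at WT HZE 1.5 h. None of 6 plastid RNA processing genes and 7 dark and senescence markers was measured.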
